A study of Mus musculus with 2 samples.

Results

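A group of microRNAs (miRNAs) that mark blood cells, and that circulate in serum, were followed in microvesicles released by cultured fat cells. They were the array entries mmu-miR-451, mmu-miR-144, mmu-miR-486, mmu-miR-223, mmu-miR-150, mmu-miR-142-3p and mmu-miR-142-5p (below without the species prefix). These are 7 of the 567 mouse miRNAs on the array and were chosen by name, with earlier results of these data known. A miRNA is a short RNA that guides Argonaute proteins to messenger RNAs and represses them. The vesicles came from 3T3-L1 cells, a line of mouse embryo preadipocytes that can be made to differentiate into fat cells. Cells were kept in high-glucose DMEM with 10% fetal calf serum (FCS) and differentiation was started with 3-isobutyl-1-methylxanthine at 0.5 mM, dexamethasone at 0.25 µM and insulin at 10 µg/ml. Medium conditioned for 48 h was taken over day 8 to 10 for the late window, or over day 2 to 4 for the early one, and vesicles were pelleted from it by ultracentrifugation. Their total RNA (100 ng) was dephosphorylated, labelled with Cy3 and hybridised to 1 one-colour Agilent array per window. Both windows therefore share the line, the induction and the percentage of serum. Whether they share a serum lot was not examined. With 1 array per window no difference below carries a test, and every error is a spread over replicate spots, which is technical. Effects of the window and of the single vesicle preparation and hybridisation cannot be told apart. Medium that had not been on cells was not analysed here, so signal from serum RNA and signal from the cells cannot be told apart.

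These miRNAs are known as markers of the blood-forming lineages, although miR-486 is also made in muscle. miR-451 and miR-144 are made from 1 primary transcript under control of the erythroid factor Gata1 and accumulate in red cells. miR-486 is carried in an intron of Ank1, the gene of erythrocyte ankyrin. miR-223 is abundant in granulocytes and platelets, miR-150 in mature lymphocytes, and both arms of miR-142 in nearly all leukocytes. Red cells and platelets pass miRNAs that they hold to plasma and serum, and fetal calf serum holds vesicles that pellet in an ultracentrifuge. Neither preadipocytes nor adipocytes are known as a main source of the blood-lineage miRNAs named above.

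Mature sequences were found in the RefSeq miRNA table (GRCm38.p6) for 5 of the 7 entries, miR-150 and miR-486 being named only. They are shown because each array signal depends on base pairing with a probe, and because their seeds (bases 2 to 8, in capitals) define which messages they can bind.
miR-451 (miR-451a, chr11:78073186-78073207, plus strand): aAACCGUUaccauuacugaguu
miR-144 (miR-144-3p, chr11:78073047-78073066, plus strand): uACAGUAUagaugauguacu
miR-223 (miR-223-3p, chrX:96242884-96242905, plus strand): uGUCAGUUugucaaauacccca
miR-142-3p (miR-142a-3p, chr11:87756903-87756925, plus strand): uGUAGUGUuuccuacuuuaugga
miR-142-5p (miR-142a-5p, chr11:87756867-87756887, plus strand): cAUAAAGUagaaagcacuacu
No pair of the 5 shared a seed. None of the other sequences among the 1679 mature mouse miRNAs in the table had any of these seeds as its own bases 2 to 8. miR-451 differed from its nearest neighbour in the table, miR-295-3p, by 8 edits, and miR-142-5p from its nearest, miR-3964, by 4 edits. For the remaining ones the nearest neighbour lay 7 (miR-144), 9 (miR-223) or 7 edits (miR-142-3p) away. The G and C content was lowest in miR-144, at 30.0%, and highest in miR-223, at 40.9%.

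The hairpin of miR-451 is short-stemmed and is cut by Argonaute 2 in place of Dicer, so that the mature strand runs from the 5′ arm into the loop. In the 72-base hairpin (chr11:78073170-78073241) the mature strand, in capitals, spans bases 17 to 38. The hairpin of miR-142 (chr11:87756864-87756927) is a conventional one, and both of its arms, in capitals, have probes on the array.
Mir451a: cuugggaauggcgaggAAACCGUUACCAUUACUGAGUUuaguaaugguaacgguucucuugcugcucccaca
Mir142: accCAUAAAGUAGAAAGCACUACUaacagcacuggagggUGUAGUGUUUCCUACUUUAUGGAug
The sources used here do not give a build for the positions in the array files. Within the files the 3′ ends of miR-144 and miR-451 were 141 bases apart on chromosome 11, as in the RefSeq table, and those of the miR-142 arms 38 bases apart, also as in the table. The files placed miR-486 on chromosome 8 at 24253067 to 24253080, and miR-150 on chromosome 7 at 52377138 to 52377153. Among the RefSeq genes of GRCm38.p6, Mir486 lies within Ank1 and the long noncoding RNA gene Gm15816, and Mir223 lies within the long noncoding RNA gene F630028O10Rik. Mir144 and Mir150 lie in no other listed gene. Mir451a and Mir142 are overlapped by another miRNA gene each, Mir451b and Mir142b, which the table's sequences place on the opposite strand.

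Each entry had 2 probes that covered stretches of different length, and each probe was printed in 10 spots, giving 140 spots per array for the 7 miRNAs. The software's outlier flag removed 4 of these spots at day 8-10 and 5 at day 2-4. Values are processed intensities in arbitrary units, the spot brightness after background subtraction on a linear scale, and can be negative. A probe was taken as detected where the flag for well above background was set on more than 0.5 of its spots, and 1 such probe sufficed for its miRNA. The lowest mean of a detected probe on an array, its floor, was 5.55 at day 8-10 and 4.86 at day 2-4. Negative-control spots, 672 per array, averaged -0.25 ± 1.26 at day 8-10 and -0.25 ± 1.14 at day 2-4 (SD over spots), with 95th percentiles of 1.57 at day 8-10 and 1.38 at day 2-4. No spot was saturated on either array. Brightness depends on the probe as well as on the RNA, so no miRNA's level is set against another's.

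Of the 7 miRNAs, 4 were detected in the late vesicles (day 8-10) and 3 in the early ones (day 2-4), beside a background of 29.3% of all 567 mouse miRNAs at day 8-10 and 27.5% at day 2-4. miR-451, miR-486 and miR-223 were detected in both windows and miR-144 at day 8-10 only, as were 3.7% of all mouse miRNAs. miR-142-3p lay at the detection limit at day 8-10, and miR-142-5p and miR-150 were detected in neither window. In a bulk preparation, fewer vesicles from a source and less RNA per vesicle cannot be told apart.

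Markers of the labelled cells were read from 2 lists, which were chosen with earlier results of these data known. Their counts therefore cannot test what the cells were. As background, 145 of 567 mouse miRNAs were detected in both windows. Of these, 15.9% were called higher and 7.59% lower at day 8-10 (at least 2-fold and by more than 2 spot SE). All 10 listed adipocyte miRNAs were detected in both windows, and 8 of them were at least 2-fold higher at day 8-10, among them miR-148a (3.72-fold) and miR-103 (3.44-fold). The list's median log2 difference was 1.38, and all of the 8 except miR-148a and miR-103 fell below 2-fold under at least 1 of 10 other settings. Of 8 listed fibroblast miRNAs, 7 were detected in both windows and 1, miR-145, was detected in neither. Of the 7, 2 were at least 2-fold lower at day 8-10, miR-214 (log2 difference -1.63) and miR-199a-5p (-1.40, but -0.75 with normexp background correction). Normexp adds an offset of 50 to every spot, which shrinks differences most for dim miRNAs, and was followed by quantile normalization. The other 5 lay within 2-fold, miR-22 at 0.59, miR-24 at 0.41, miR-21 at 0.16, miR-125b-5p at -0.25 and miR-199b at -0.95. Of these, miR-199b was at least 2-fold lower in 5 of the 10 other settings. That list's median was -0.25, beside 0.20 over all 145.

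The erythroid miR-451 lay far above the floor on both of its probes and in both windows. Its longer probe, which covers 22 bases, averaged 866 ± 16.4 at day 8-10 and 956 ± 23.2 at day 2-4 (SD, 10 spots each). These means were 156 times the floor at day 8-10 and 197 times the floor at day 2-4. Single spots of that probe ran from 836 over a median of 869 to 892 at day 8-10, and from 914 over 957 to 988 at day 2-4. The shorter probe, which lacks 1 base of that stretch, averaged 462 ± 8.60 at day 8-10 and 511 ± 14.9 at day 2-4. Its spots ran from 448 over 462 to 472 at day 8-10 and from 490 over 511 to 534 at day 2-4. All 20 spots were well above background in each window, and as deposited, before any scaling, the day 8-10 spots lay below the day 2-4 spots on both probes without overlap.

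**Figure D1:**
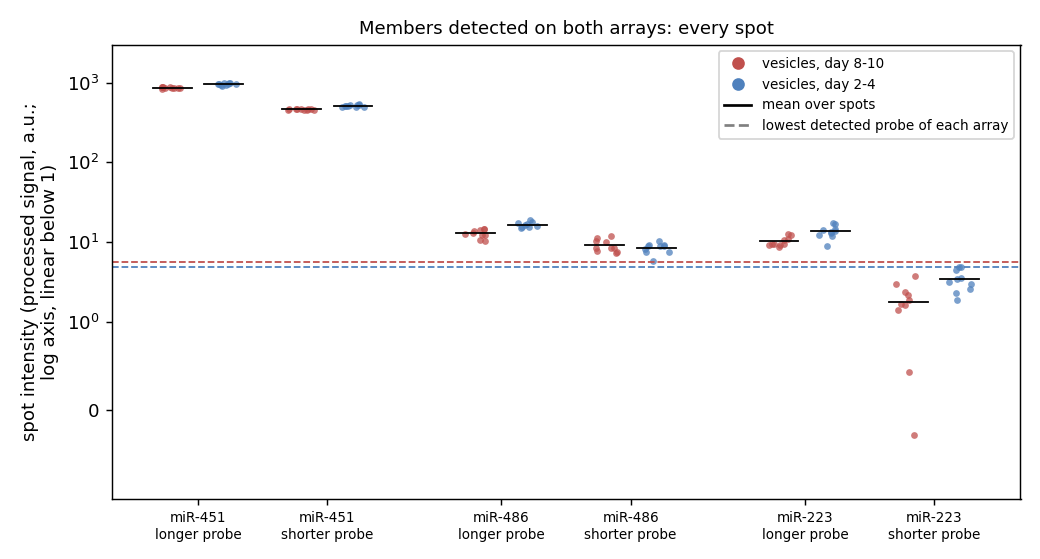
Processed intensity (arbitrary units, log axis, linear below 1) of every spot in use for the miRNAs detected in both windows, by probe, with day 8-10 vesicles left of day 2-4 vesicles. Bars are means over spots and dashed lines the lowest detected probe of each array (5.55 at day 8-10, 4.86 at day 2-4). The miR-451 means stand between 462 and 956, miR-486 and the longer miR-223 probe between 8.46 and 16.6, and the shorter miR-223 probe below both lines.

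For the 279 probes detected in both windows, the 75th percentile of signal was 95.2 at day 8-10 and 108 at day 2-4. Spots were divided by the value of their own array. The middle of the distribution did not show this gap. Without scaling, the median log2 difference of the 145 miRNAs was 0.019, against 0.20 with it. With the 75th percentile over all probes the median was -0.33. The level of miR-451 between windows therefore depends on the scaling, and its log2 difference was -0.14 without any. After scaling, the longer miR-451 probe averaged 9.09 at day 8-10 and 8.82 at day 2-4 on a linear relative scale, and the spots of the windows overlapped. The log2 difference, day 8-10 minus day 2-4, was 0.043 (spot SE 0.011), a 1.03-fold level. Both probes gave nearly the same difference, 0.042 and 0.043. The ratio of the longer to the shorter probe was 1.87 ± 0.016 at day 8-10 and 1.87 ± 0.022 at day 2-4 (SE over spots). Among the 76 miRNAs that have exactly 2 probes, both detected in both windows, the log2 ratio of the probes moved least for miR-451, by 0.0016 beside a median of 0.066.

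miR-144, processed from the same primary transcript, was dim and crossed the detection limit. Its longer probe averaged 6.94 ± 1.17 at day 8-10 (10 spots, 9 of them well above background) and 1.89 ± 0.91 at day 2-4 (10 spots, none well above background). Its shorter probe averaged 6.40 ± 1.10 at day 8-10 (8 spots in use, 6 well above background) and 1.44 ± 1.18 at day 2-4 (10 spots, none). The lowest spot at day 8-10 was 4.54 and the highest at day 2-4 was 3.12, so the spots did not overlap on either probe. The day 2-4 signal was not well above background and allows a bound only: miR-144 was at least 1.57-fold higher at day 8-10. That bound sets every spot to no lower than its window's floor, at day 8-10 as at day 2-4. The dimmest day 8-10 spots were raised by this, so the bound is approximate. The day 8-10 means lay only 1.15 to 1.25 times above their own floor. At day 2-4, 12 of 20 spots were still positive and significant by the software's flag, against 10.1% of the negative-control spots. Scaling to the 75th percentile of all probes lowered the bound to 1.08.

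miR-486, the other erythroid entry, was detected by both probes in both windows, at 14.6 in the software's summed gene signal at day 8-10 and 16.6 at day 2-4. Its probes cover the shortest stretches among the 7 miRNAs, 14 and 13 bases. The longer probe averaged 12.8 ± 1.5 at day 8-10 (10 spots, 10.4 to 14.8) and 16.6 ± 1.23 at day 2-4 (9 spots, 15.1 to 18.8), without overlap of the unscaled spots. The shorter probe averaged 9.08 ± 1.61 at day 8-10 (7.26 to 11.8) and 8.46 ± 1.25 at day 2-4 (5.76 to 10.2), with overlap. The probes differed in direction: after scaling their log2 differences were -0.19 (longer) and 0.28 (shorter). Their mean was 0.046 (spot SE 0.063), less than 1 spot SE from 0. The ratio of longer to shorter probe was 1.41 ± 0.095 at day 8-10 and 1.96 ± 0.10 at day 2-4, a log2 shift of 0.47 that was the second largest (rank 75) among the 76 miRNAs with such probe pairs.

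The myeloid miR-223 was detected by 1 of its 2 probes. The longer probe, over 21 bases, averaged 10.2 ± 1.40 at day 8-10 (10 spots, 8.67 to 12.7) and 13.6 ± 2.39 at day 2-4 (10 spots, 8.99 to 17.3), and all of its spots were well above background. The spots of the windows overlapped. The shorter probe, over 20 bases, averaged 1.78 ± 1.14 at day 8-10 and 3.39 ± 1.04 at day 2-4, below the floor in both windows, with no spot well above background. The scaled log2 difference of the longer probe was -0.22 (spot SE 0.10), a level of 0.860 at day 8-10 relative to day 2-4.

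None of the 3 blood-cell miRNAs detected in both windows differed by 2-fold or more, in a comparison where 23.4% of the 145 miRNAs detected in both windows did. Of those 145, 15.9% passed this limit with higher and 7.59% with lower signal at day 8-10, each by more than 2 spot SE. The 145 differences had a median of 0.20 and quartiles of -0.22 and 0.73. miR-451 lay 0.16 below that median, miR-486 0.16 below it and miR-223 0.42 below it, with 57, 58 and 36 of the 145 miRNAs having a lower difference, in that order. On this measure miR-451 and miR-486 were in the middle part of the distribution and miR-223 was at its lower quartile. The signs of the smallest differences depended on the processing. The median of all 145 ran from -0.33 to 0.22 over the main and 10 other settings, and miR-451 and miR-486 turned negative in 6 and 8 of the 10, while miR-223 was negative in all 10. No setting put any of the 3 at 2-fold, but the normexp setting is weak on this point. Its offset of 50 shrinks the differences of dim miRNAs such as miR-486 and miR-223.

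**Figure D2:**
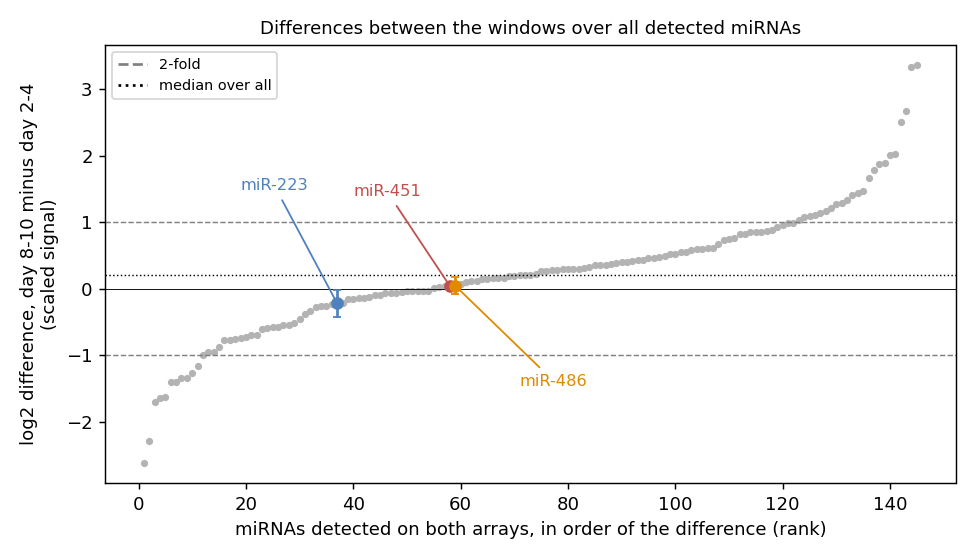
Log2 difference of the scaled signal, day 8-10 minus day 2-4, of the 145 miRNAs detected in both windows, placed by rank. Coloured points are miR-223, miR-451 and miR-486 with bars of 2 spot SE, dashed lines mark 2-fold and the dotted line the median of 0.20. The coloured points lie at -0.22, 0.043 and 0.046, inside the 2-fold lines and below the median.

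miR-142-3p, common to leukocytes, stood at the limit. Its longer probe (23 bases) averaged 5.19 ± 1.72 at day 8-10, with 5 of 10 spots well above background, which is just short of the rule, and 2.75 ± 0.70 at day 2-4, with 0 of 9. The spots ran from 2.47 over a median of 5.44 to 7.54 at day 8-10, and from 1.55 over 2.94 to 3.53 at day 2-4, and so overlapped. The shorter probe (22 bases) averaged 2.00 ± 1.25 at day 8-10 and 1.41 ± 1.01 at day 2-4. All spots of the longer probe in use were positive and significant in both windows, 10 of 10 and 9 of 9. The software's own flag counted miR-142-3p as detected at day 8-10 and not at day 2-4. No fold is given, since neither window passed the rule.

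The opposite arm of the same hairpin gave no such signal. The miR-142-5p probes averaged 0.13 ± 0.94 (longer) and -0.14 ± 1.10 (shorter) at day 8-10, and -0.45 ± 0.48 and -0.50 ± 1.16 at day 2-4. The software flagged 2 of 20 spots at day 8-10 and 1 of 19 at day 2-4 as positive and significant, where it flagged 11.2% and 10.1% of the negative-control spots. The lymphocyte miRNA miR-150 was alike. Its probes averaged -0.82 ± 0.83 (longer) and 0.51 ± 0.74 (shorter) at day 8-10, and -0.24 ± 0.79 and -0.21 ± 1.04 at day 2-4. Of its spots, 1 of 18 at day 8-10 and 2 of 18 at day 2-4 were positive and significant. All these means lay within 1 SD of the mean of the negative-control spots. Arrays of this sensitivity show that neither was detectable, not that they were absent.

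**Figure D3:**
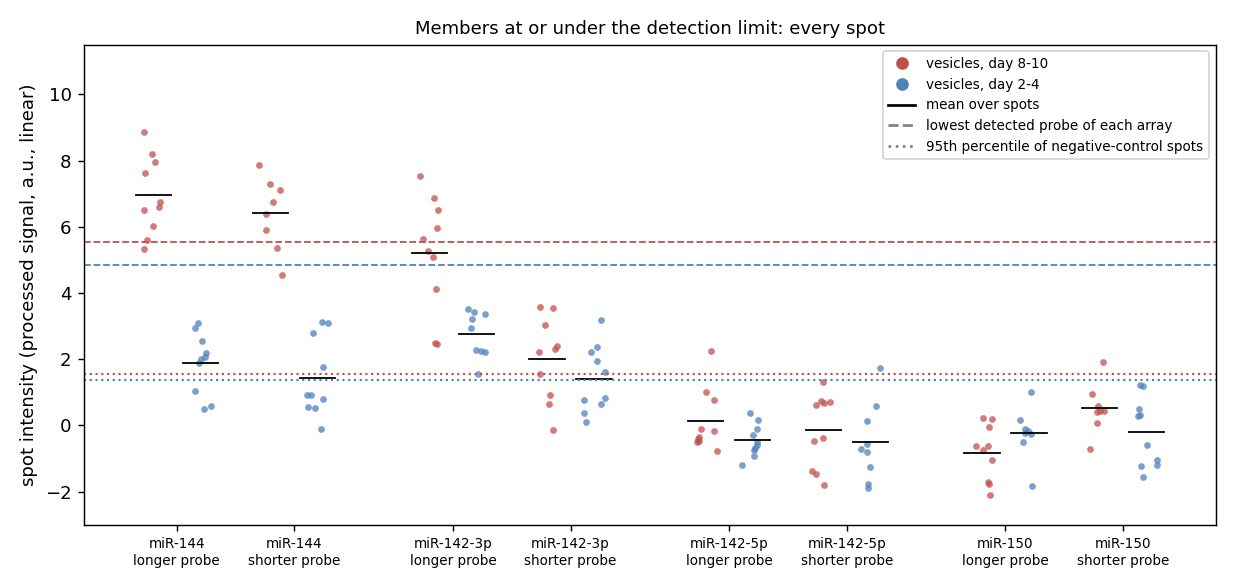
Processed intensity (arbitrary units, linear axis) of every spot in use for miR-144, miR-142-3p, miR-142-5p and miR-150, by probe, with day 8-10 vesicles left of day 2-4 vesicles. Bars are means, dashed lines the lowest detected probe and dotted lines the 95th percentile of negative-control spots (1.57 at day 8-10, 1.38 at day 2-4). Only miR-144 has spots of the windows that do not overlap, and miR-142-5p and miR-150 lie around 0.

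A wider list of 17 blood-lineage miRNAs that are not among the 7, 16 of them on the array, was read in the same way. Of the 16, 8 were detected in both windows, where 145 of all 567 were, and 0 of these 8 differed by 2-fold or more, beside 23.4% of the 145. The 8 had a median log2 difference of 0.013, beside 0.20 over all 145. They were miR-106b (0.92), miR-20a (0.28), miR-16 (0.20), miR-93 (0.11), miR-181b (-0.085), miR-25 (-0.14), miR-92a (-0.51) and miR-15b (-0.58). Most of these are made in many other cell types too, miR-106b, miR-25 and miR-93 from 1 intronic cluster and miR-20a and miR-92a from the cluster that also makes miR-17. With the 75th percentile over all probes, miR-15b (-1.12) and miR-92a (-1.05) passed 2-fold and the signs of miR-16, miR-20a and miR-93 turned negative. miR-155, induced in activated lymphocytes and macrophages, was detected at day 2-4 only and was at least 1.26-fold higher there under the reported scaling, an approximate bound. Over 10 other settings the log2 difference of miR-155 ran from -2.13 to -0.16. Its brighter probe averaged 4.46 at day 8-10 and 11.0 at day 2-4. miR-181a was detected at day 2-4 only, with no usable bound. The other 6 entries were detected in neither window.

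The 3 liver-made miRNAs that are common in serum did not behave alike. miR-122, the defining hepatocyte miRNA, was detected in neither window, its brighter probe averaging 2.93 at day 8-10 and 2.45 at day 2-4. miR-192 was 2.20-fold higher at day 8-10 than at day 2-4 after scaling, with a log2 difference of 1.14 (spot SE 0.059). This rests on 1 of its 2 probes, which averaged 10.4 at day 8-10 and 5.31 at day 2-4. The day 2-4 mean lay near that window's floor of 4.86. The 2-fold call of miR-192 held in 5 of 10 other settings. Its log2 difference was 0.085 with normexp, whose offset of 50 is larger than both means, so that setting could not show 2-fold here. miR-194 was detected at day 8-10 only, on 1 of 2 probes, with an approximate bound of at least 1.46-fold higher under the reported scaling. Its brighter probe averaged 5.96 at day 8-10, near the floor of 5.55. With the 75th percentile over all probes the log2 difference of miR-194 was 0.010. The part of serum RNA in any of these values was not tested.

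Over the 2 arrays, the other miRNAs with the nearest difference were the same for miR-451 and miR-486: miR-140 (0.037), miR-546 (0.030) and miR-466c-5p (0.068). For miR-223 they were miR-296-5p (-0.21), miR-10b (-0.23) and miR-125b-5p (-0.25). With 1 difference per miRNA, this likeness is a description only.

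**Figure D4:**
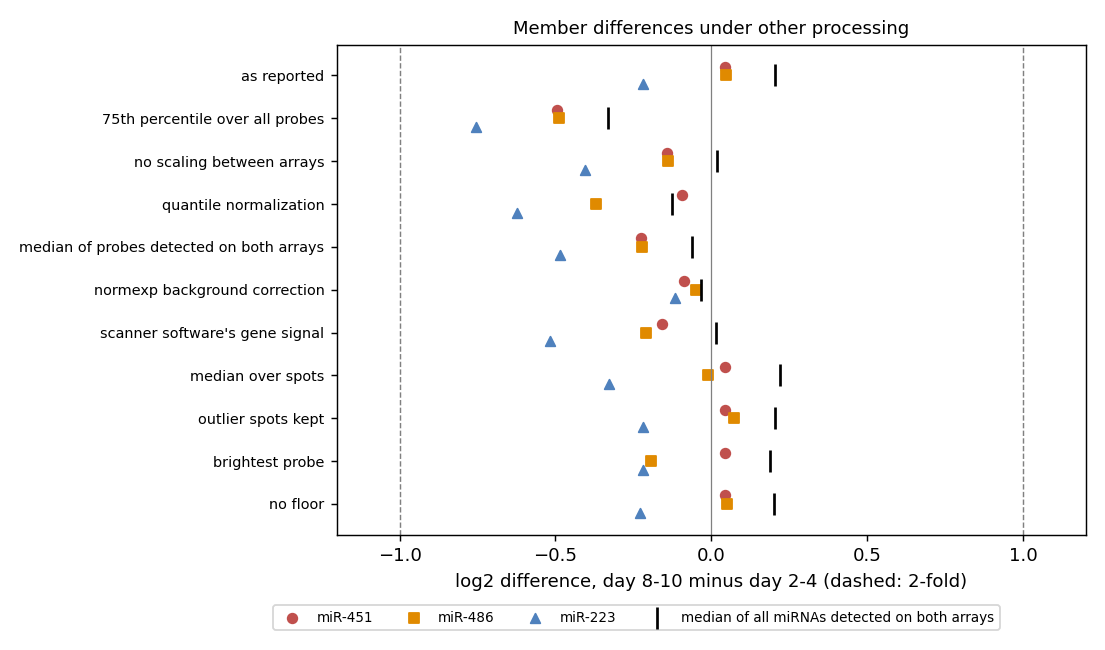
Log2 difference, day 8-10 minus day 2-4, of miR-451, miR-486 and miR-223 as reported and under 10 other settings, with the median of all 145 miRNAs as a black bar and 2-fold as dashed lines. The points stay between -0.75 and 0.071. Scalings that divide each array by 1 constant move the points and the black bar by the same amount by construction.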

How the data were processed

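Per the file headers, the deposited intensity of each spot was made with Agilent Feature Extraction 9.5.3.1, by subtracting a fitted background surface from the spot brightness, with no normalization between arrays. Flags and the software's p-value that a spot equals its background are also the authors' deposited values. The series value table held the same intensity for 12493 of 12493 spots on each array (relative tolerance 1e-06), with medians of 0.646 at day 8-10 and 0.516 at day 2-4, so it is linear and not centred. Control spots and outlier spots were left out. Spots were divided by the 75th percentile over probes detected on both arrays, set to no lower than the floor, log2 transformed and averaged per probe, then over probes detected on at least 1 array. A miRNA counted as higher or lower when detected on both arrays, at least 2-fold apart and more than 2 spot SE apart. Bounds used the same floored spots on both arrays and are approximate. Calculations used Python 3.11.15, numpy 2.4.6 and pandas 2.3.3, with limma 3.58.1 in R 4.3.3 for normexp, and were tested on simulated arrays. The number of arrays limits the precision. Named were all 7 members, every detected entry of both blood and serum lists, up to 2 examples of each marker list (the undetected miR-145 and miR-122, and the 5 fibroblast entries within 2-fold, were added after their values were seen) and the 3 nearest miRNAs. The members and lists were chosen with earlier results of these data known. Tried alternatives were other scalings, background corrections, spot summaries, floors and detection rules.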

Additional observations from a re-analysis of the deposited data

How the results depend on the processing

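No paired analysis was possible because each window has 1 array. The count of 0 of 3 members past 2-fold was the same in all 6 alternatives run for it. Among them was normexp, whose offset shrinks the differences of dim miRNAs such as miR-486 and miR-223. Another was a 1.5-fold limit. That limit was run with the reported scaling only, and the share of all miRNAs past it was not counted. With the 75th percentile over all probes, or with quantile normalization, miR-223 lay past 1.5-fold. The log2 difference of miR-451 was -0.49 with the 75th percentile over all probes, -0.14 without scaling, -0.094 with quantile normalization, -0.22 with scaling to the median of detected probes, -0.089 with normexp (offset 50) and -0.16 with the software's gene signal. That of miR-486 was -0.49 with the 75th percentile over all probes and -0.37 with quantile normalization, and that of miR-223 was -0.75 and -0.62 under the same 2 settings. The other settings moved these values by less than the spread between spots. The bound for miR-144 was 1.08 with the 75th percentile over all probes, 1.15 with quantile normalization and 1.30 with the median of detected probes. It was 3.97 with the software's gene signal, whose floor was set anew. With normexp the ratio was 1.08 and is no bound, since the offset of 50 stood in place of a floor and shrinks the ratios of dim miRNAs. Without a floor the ratio was 4.60 and is no bound. Members detected at day 8-10 numbered 3 to 5 over 4 other detection rules. They were 3 when every spot had to be well above background, a rule that took 27.0% of all mouse miRNAs. Under the other rules, which took 33.9% to 47.1%, they were 5. At day 2-4 they were 5, miR-144 and miR-142-3p added, when most spots had to be positive and significant. That rule took 44.8% of all mouse miRNAs. Under the other rules, which took 25.2% to 32.6%, the day 2-4 count was 3. Over all 145 miRNAs, the counts at least 2-fold higher and lower were 23 and 11 as reported. They were 10 and 29 with the 75th percentile over all probes, and 17 and 15 without scaling. With quantile normalization they were 13 and 21, and with the software's gene signal 19 and 18. With normexp, whose offset shrinks the differences of dim miRNAs, they were 5 and 5. Signal near background limits miR-144, miR-142-3p and the shorter miR-223 probe.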
